A study of Homo sapiens with 4 samples.

Results

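The genes described here are 8 neuropeptide precursors, GAL, VIP, PENK, ADCYAP1, NPY, CARTPT, SST and TAC1, and 2 peptide receptors, CCKAR and SSTR2. These 10 genes are taken by symbol from the 60612 genes of a count table of IMR-32 cells, an established human neuroblastoma line with amplified MYCN. They were selected on the measured difference between knockdown and control libraries of this same table, so their differences are given below as a description, with no test. The RNAseq series compared cells in which NeuroD1, a neuronal transcription factor, was knocked down with control cells, to find genes whose mRNA level changed. In both groups the cells held a short hairpin RNA under doxycycline control and received doxycycline at 1 µg/mL for 48 h. The shControl group (2 libraries, genotype given as WT) carried a control hairpin, and the shNeuroD1 group (2 libraries) carried a hairpin against NEUROD1. The study's gene table names both knockdown libraries after 1 of its NeuroD1 hairpins, which is taken here as the hairpin used. The labels do not name the hairpin. The knockdown titles end in 1 and 2, as do the study's hairpin names, but the shControl titles do so too. With 1 hairpin, loss of NeuroD1 and any other action of that hairpin cannot be told apart. Whether the 2 libraries of each group came from separate cultures is not stated in the labels, and the p-values below measure only the spread between these libraries, which may be technical.

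Neuropeptides are made as larger precursors, packed into dense-core vesicles, cut by processing enzymes and released as signals. Most of them act on G protein-coupled receptors, some of which raise cyclic AMP in the receiving cell, as the VIP and PACAP receptors do, and some of which lower it, as the somatostatin receptors do. Cells of the sympathetic lineage, from which neuroblastoma arises, make several such peptides, and somatostatin receptors are used to image these tumours.

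Total counts ranged from 14665210 to 16482463 per library, and 26071 to 27121 genes had a count. NEUROD1 (ENSG00000162992) gave 6174 and 6582 counts with the control hairpin against 969 and 886 with the NeuroD1 hairpin, or 14.6% of the control level after scaling. Of 10 markers of adrenergic neuroblastoma cells, 8 were at 1 CPM or more in all libraries (CPM, counts scaled to the TMM-adjusted library size), and their summed level was 2219 to 2237 CPM in shControl and 1989 to 2020 CPM in shNeuroD1. Of 6 mesenchymal markers 4 were at that level, with sums of 228 to 229 CPM and 153 to 158 CPM, and PRRX1 was at 0. Of 4 Schwann cell markers 1 was at that level, with sums of 5.03 to 5.15 CPM and 8.40 to 9.57 CPM. The 5 blood and endothelial markers (sums of 1.38 to 1.42 CPM and 0.197 to 0.656 CPM, CD3E at 0), the 5 markers of the endocrine pancreas (0.189 to 0.339 CPM and 0.0656 to 0.197 CPM, with INS, GCG, IAPP and PDX1 at 0) and the 4 epithelial markers (0 to 0.126 CPM and 1.38 to 1.84 CPM, with CDH1 and KRT5 at 0) had no gene at that level in all libraries. The shNeuroD1 sum of the epithelial markers came from EPCAM alone (0, 1, 28 and 21 counts over the libraries). Most of the blood and endothelial sum in shControl came from CDH5 (18, 17, 1 and 0 counts). The part of these markers in the results below was not tested. In bulk RNA, fewer cells of a type and less RNA per cell cannot be told apart.

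GAL and VIP were higher after knockdown, CCKAR and SSTR2 were more than 10-fold lower, ADCYAP1 was moderately lower, PENK and NPY were at low levels, and CARTPT, SST and TAC1 had no counts in any library. The 7 genes with counts passed the filter on low counts. Of these, 2 were lower and 3 were higher past the call rule used for all genes, an edgeR adjusted p under 0.05 with a log2 fold change beyond 1 in size, against 5.14% lower and 8.79% higher among 17537 genes tested. Because the genes were selected on this contrast, nothing is read from that count. By the adjusted p alone, 3 were lower and 3 higher, beside 28.2% and 26.8% of all genes.

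**Figure D1:**
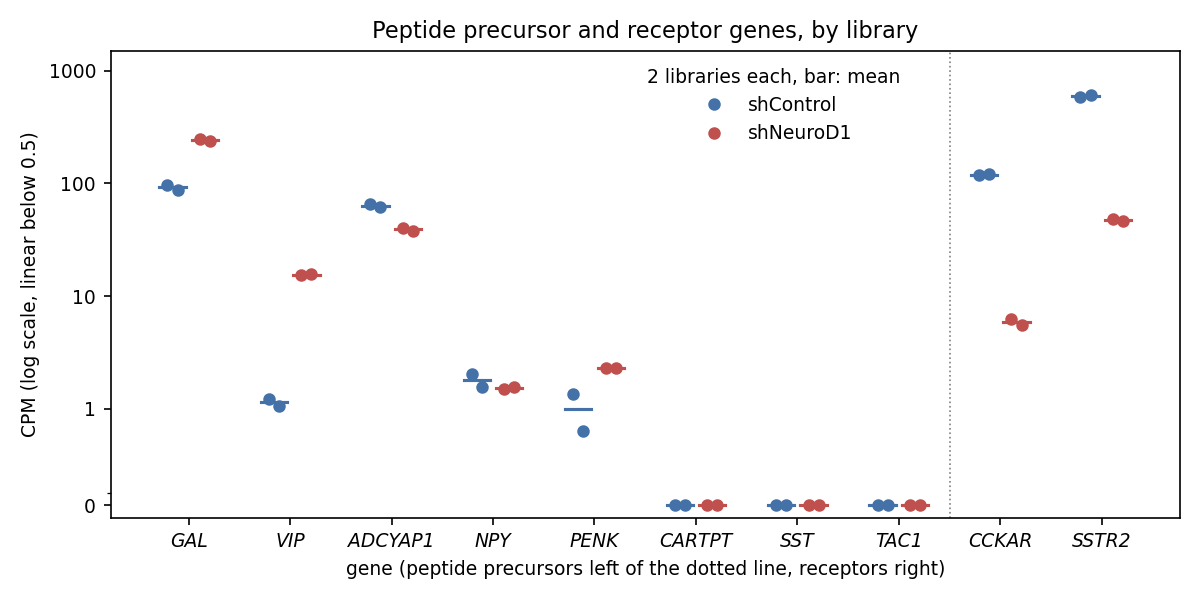
The level of each gene in each library, in CPM on a log axis that is linear below 0.5, for shControl (blue) and shNeuroD1 (red), with points for libraries and bars for means of 2. The groups lie apart for GAL, VIP, ADCYAP1, PENK, CCKAR and SSTR2, overlap for NPY, and sit at 0 for CARTPT, SST and TAC1. The share of all genes whose groups lie apart was not counted, so nothing is read from this separation.

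GAL (ENSG00000069482, GRCh38 chromosome 11, 68683779 to 68691175, plus strand) encodes galanin, a peptide of sympathetic and sensory neurons that often restrains release of other transmitters. Controls gave 1437 and 1374 GAL counts and knockdown libraries 3759 and 3612, or 97.3, 86.4, 247 and 237 CPM. Both knockdown libraries were above both controls, and GAL stayed the most abundant precursor of the 8 in every library. Its mean went from 91.8 ± 7.74 CPM (SD, n = 2) to 242 ± 6.98 CPM (SD, n = 2), a 2.63-fold difference with a log2 fold change of 1.40 (SE 0.0517).

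VIP (ENSG00000146469, chromosome 6, 152750798 to 152759765, plus strand) encodes vasoactive intestinal peptide, which raises cyclic AMP through receptors it shares with PACAP. Counts of VIP were 18 and 17 in the controls and 234 and 237 after knockdown, or 1.22, 1.07, 15.4 and 15.5 CPM. VIP was scarce in the controls and well above them in the knockdown libraries, with replicates close together in each group. The means were 1.14 ± 0.106 CPM and 15.4 ± 0.129 CPM (SD, n = 2 each), 13.5-fold apart, with a log2 fold change of 3.75 (SE 0.201). VIP therefore had the largest rise of the 10 genes on the log2 scale, at place 17480 of 17537 genes ordered from the lowest log2 fold change to the highest, with GAL at place 16653.

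PENK (ENSG00000181195, chromosome 8, 56436674 to 56446734, minus strand) encodes proenkephalin, the precursor of the enkephalins, which act on opioid receptors. Counts of PENK were 20 and 10 in the controls and 35 and 35 after knockdown, or 1.35, 0.628, 2.30 and 2.29 CPM. The knockdown libraries were alike and above both controls, which differed from each other by more than the knockdown libraries did. The means were 0.991 ± 0.513 CPM and 2.30 ± 0.00156 CPM (SD, n = 2 each), 2.32-fold apart, and the log2 fold change of 1.22 (SE 0.372) became 0.75 without shControl replicate 2 and 1.84 without shControl replicate 1. PENK shares 694 exon bases with AC012349.1 on the opposite strand, which had 0, 1, 5 and 3 counts, and the sources used here do not say whether strand was used in counting.

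ADCYAP1 (ENSG00000141433, chromosome 18, 904943 to 912172, plus strand) encodes PACAP, the pituitary adenylate cyclase-activating polypeptide, a peptide of preganglionic sympathetic neurons and the closest relative of VIP. Controls gave 962 and 972 ADCYAP1 counts and knockdown libraries 611 and 580, or 65.1, 61.1, 40.1 and 38.0 CPM. Both knockdown libraries were below both controls. The mean fell from 63.1 ± 2.86 CPM to 39.0 ± 1.46 CPM (SD, n = 2 each), to 61.9% of control, with a log2 fold change of -0.69 (SE 0.0669), which is short of the call rule's fold. VIP and ADCYAP1, which encode relatives, thus went opposite ways. On the opposite strand AP000894.2 shares 506 exon bases with ADCYAP1 and had 510, 495, 428 and 431 counts, and AP000894.3 shares 90 and had none.

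NPY (ENSG00000122585, chromosome 7, 24284163 to 24291865, plus strand) encodes neuropeptide Y, the co-transmitter of noradrenaline in sympathetic neurons. Counts of NPY were 30 and 25 in the controls and 23 and 24 after knockdown, or 2.03, 1.57, 1.51 and 1.57 CPM. The groups overlapped, and no difference beyond the spread of the libraries was detectable at this depth. The log2 fold change was -0.22 (SE 0.341), with 1.80 ± 0.325 CPM in shControl and 1.54 ± 0.0453 CPM in shNeuroD1 (SD, n = 2 each), and it had the opposite sign, 0.23, on log2(FPKM + 1).

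CARTPT (ENSG00000164326, chromosome 5, 71719163 to 71721048, plus strand) encodes the CART prepropeptide, SST (ENSG00000157005, chromosome 3, 187668906 to 187670399, minus strand) encodes somatostatin, an inhibitory peptide, and TAC1 (ENSG00000006128, chromosome 7, 97731908 to 97740472, plus strand) encodes substance P and neurokinin A. Each of these had 0 counts in all 4 libraries. A count of 0 allows up to 3 counts, or 0.195 and 0.182 CPM in the shControl libraries and 0.205 and 0.204 CPM in the shNeuroD1 libraries, and this limit covers counting error only. No fold change can be given for them.

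CCKAR (ENSG00000163394, chromosome 4, 26481400 to 26490462, minus strand) encodes the cholecystokinin A receptor, which binds sulfated cholecystokinin and raises intracellular calcium in gut, pancreas and brain. Controls gave 1758 and 1908 CCKAR counts and knockdown libraries 96 and 84, or 119.0, 119.9, 6.30 and 5.51 CPM. The controls were almost equal and both knockdown libraries lay far below them. The means were 119.5 ± 0.623 CPM and 5.90 ± 0.560 CPM (SD, n = 2 each), so that 4.94% of the control level remained, 20.2-fold lower, with a log2 fold change of -4.34 (SE 0.0848). This was place 21 from the lowest of 17537 genes. Leaving out 1 library at a time gave -4.44 to -4.24.

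SSTR2 (ENSG00000180616, chromosome 17, 73165012 to 73176633, plus strand) encodes the somatostatin receptor that octreotide-type ligands bind best, and it lowers cyclic AMP through Gi. Controls gave 8696 and 9640 SSTR2 counts and knockdown libraries 734 and 709, or 588.8, 606, 48.2 and 46.5 CPM. Both knockdown values lay far below both controls, and SSTR2 had more counts than CCKAR in every library. The means were 597 ± 12.1 CPM and 47.3 ± 1.19 CPM (SD, n = 2 each), which left 7.92% of the control level, 12.6-fold lower, with a log2 fold change of -3.66 (SE 0.0503), at place 33 from the lowest. AC097641.1 overlaps SSTR2 on the same strand over 277 exon bases and had 14, 19, 8 and 7 counts.

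Levels of different genes were compared per exon length, as RPKM (TMM-scaled CPM per kilobase of merged exons). In shControl the highest were SSTR2 (75.0 and 77.2 RPKM), GAL (74.8 and 66.4 RPKM) and CCKAR (69.2 and 69.7 RPKM), followed by ADCYAP1 at a mean of 16.6 RPKM, NPY at 1.96, VIP at 0.722 and PENK at 0.287. SSTR2 was above the others in both libraries, by little over the higher GAL value, and the range of GAL took in that of CCKAR, so the order of GAL and CCKAR is within their spread. The lower genes stood apart from each other. In shNeuroD1 the order was GAL at a mean of 186 RPKM, ADCYAP1 at 10.3, VIP at 9.75, SSTR2 at 6.03, CCKAR at 3.43, NPY at 1.67 and PENK at 0.664. ADCYAP1 (10.5 and 9.99 RPKM) and VIP (9.69 and 9.81 RPKM) were close there but did not overlap. Against 17303 tested genes with an exon length, CCKAR went from above 97.1% of genes in shControl to above 44.2% in shNeuroD1, SSTR2 from 97.4% to 59.3%, and VIP from 17.6% to 72.6%. GAL stayed high in this ranking, above 97.2% and 99.3% of genes.

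**Figure D2:**
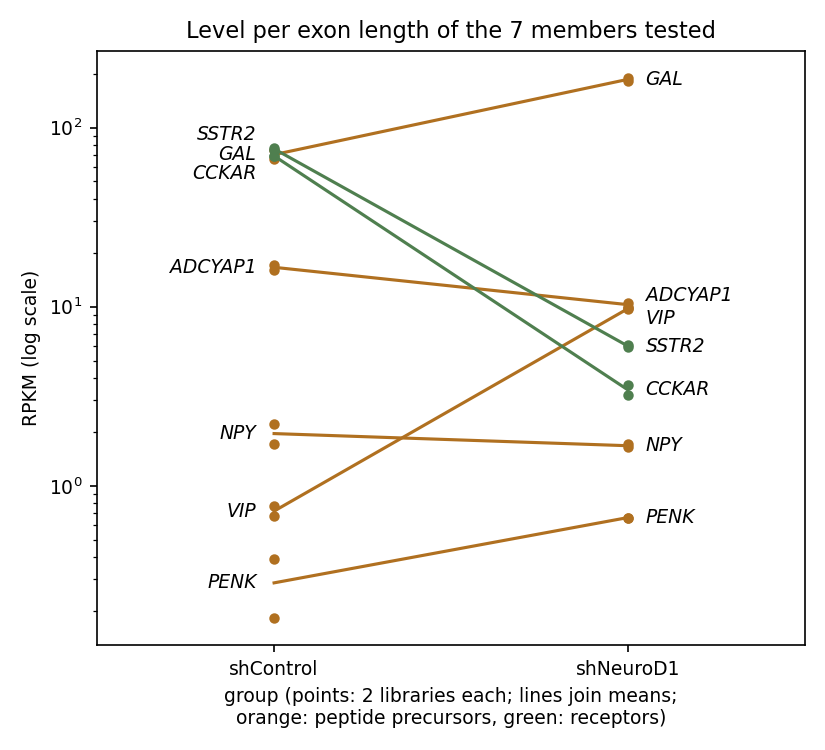
Levels per exon length in RPKM, on a log axis, of the 7 genes with counts, with points for the 2 libraries of each group and lines joining group means, in orange for precursors and green for receptors. SSTR2, GAL and CCKAR start together near the top in shControl and spread over a range from 3.43 to 186 RPKM in shNeuroD1.

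Within the 8 precursors, GAL made up 78.5% and 78.1% of the summed RPKM in shControl and 89.4% and 89.1% in shNeuroD1. ADCYAP1 held 18.0% and 18.9% in the controls against 4.96% and 4.89% after knockdown, while the share of VIP was 0.807% and 0.793% and then 4.57% and 4.80%. Thus ADCYAP1 took second place among the precursors in every library, with VIP at a similar share only in shNeuroD1. SSTR2 made up 98.8% and 99.0% of the RPKM summed over the 5 somatostatin receptor genes in shControl and 94.6% and 98.3% in shNeuroD1. CCKAR was the sole receptor for cholecystokinin with counts, since CCKBR had none in any library.

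Assembled transcripts gave a further view of the same libraries, as FPKM (fragments per transcript length and library depth), for the ends, starts and splice events of transcripts. At transcript ends CCKAR had 22.3 and 25.9 FPKM in shControl and 1.16 and 1.57 in shNeuroD1, GAL had 92.8, 81.3, 248.9 and 239, and VIP had 0.618, 0.340, 7.48 and 7.09. The ratios of the group means were 5.67% of control for CCKAR, 2.80-fold for GAL and 15.2-fold for VIP, in the direction of the counts. SSTR2 transcript ends had 56.3, 59.1, 4.82 and 4.62 FPKM, or 8.18% of control, in a locus that the tables assign to COG1, a neighbouring gene on the same strand. ADCYAP1 had 12.1, 12.03, 8.29 and 8.23 FPKM at its ends, or 68.6% of control. PENK starts summed to 0.349, 0.241, 0.848 and 1.12 FPKM, and its ends only to 0, 0.0014, 0.071 and 0.0033 FPKM. In shControl replicate 1 the listed PENK start lay between 56446426 and 56446572. In the other libraries most of the sum lay at a start between 56446569 and 56446671, not listed in shControl replicate 1. The summed PENK starts thus join unlike, partial transcripts. NPY ends had 1.38, 1.10, 1.66 and 1.57 FPKM, which put NPY higher in both knockdown libraries, unlike its counts.

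**Figure D3:**
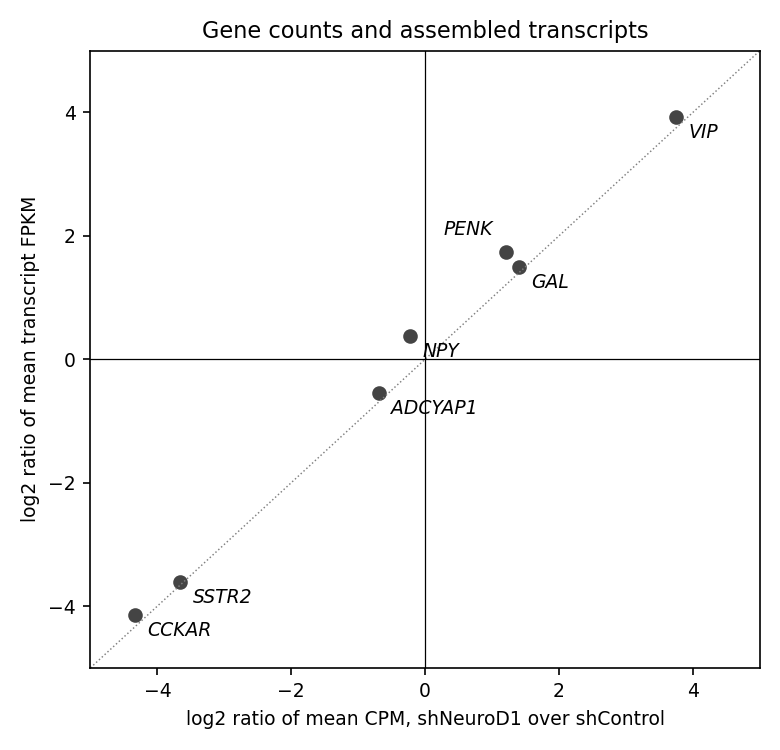
The log2 ratio of mean FPKM, shNeuroD1 over shControl (transcript ends, or starts for PENK), against the log2 ratio of mean CPM, for the 7 genes with counts. The dotted line marks equal ratios. NPY, at -0.23 by CPM and 0.38 by FPKM, is the only gene with opposite signs.

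The transcript events also listed some of the starts and introns in use. For CCKAR a start between 26490728 and 26490817 on chromosome 4, outside the annotated gene, had 5.08 and 5.28 FPKM in shControl and was not listed in shNeuroD1. No other CCKAR start was listed. Its transcript end had 22.3 and 25.9 FPKM in shControl, so most of its FPKM had no listed start. Transcripts that kept the intron from 26483283 to 26485637 had 17.1 and 6.30 FPKM in shControl and were not listed in shNeuroD1, and those that spliced it out had 5.19, 19.6, 1.16 and 1.57 FPKM. The control libraries thus divided the gene differently between the spliced and the retained form. The tables list an event where its FPKM is above 0, and the whole gene was at most 1.57 FPKM at its end in shNeuroD1. For ADCYAP1 the main start, between 904871 and 905060 on chromosome 18, had 9.22, 11.0, 6.99 and 6.38 FPKM, and the next one, between 905109 and 905496, stayed at 0.150 to 0.160 FPKM in all libraries.

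Promoter sequences (RefSeq, GRCh38.p14, from 250 bases before to 50 bases after a gene's start) were found for 7 of the 10 genes, with 2 for ADCYAP1. GAL, PENK and CCKAR had no entry. They were searched on both strands for the cyclic AMP response element TGACGTCA, its half-site TGACG (also found within the full element, on each strand), and 2 E-boxes, CAGATG and CAGCTG, the kind of element that NeuroD1 and its relatives bind. TGACGTCA is present in 1.85% of 35116 promoters, TGACG in 24.6%, CAGATG in 14.7% and CAGCTG in 17.9%. The promoters of VIP, with the largest rise, and SSTR2, the receptor with the most counts, are shown whole, with TGACG or its reverse complement CGTCA in capitals.
VIP, chr6:152750547-152750846, plus strand: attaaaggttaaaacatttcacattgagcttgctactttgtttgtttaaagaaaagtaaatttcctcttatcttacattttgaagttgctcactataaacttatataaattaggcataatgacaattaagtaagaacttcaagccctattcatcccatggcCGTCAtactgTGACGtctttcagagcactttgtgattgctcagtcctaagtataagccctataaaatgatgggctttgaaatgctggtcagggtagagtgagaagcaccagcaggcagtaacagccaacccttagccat
SSTR2, chr17:73164760-73165059, plus strand: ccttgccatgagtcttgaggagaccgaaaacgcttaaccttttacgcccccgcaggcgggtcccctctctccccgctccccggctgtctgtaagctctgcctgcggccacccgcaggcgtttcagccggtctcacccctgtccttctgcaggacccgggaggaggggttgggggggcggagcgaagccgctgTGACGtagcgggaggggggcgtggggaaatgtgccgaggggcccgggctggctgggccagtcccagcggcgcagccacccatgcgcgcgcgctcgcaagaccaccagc

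The VIP promoter held 2 half-sites, whose first bases lie at -89 and -79 from the gene's start, and the SSTR2 promoter held 1, at -58. VIP was higher and SSTR2 lower after knockdown. The complete element stood in the promoters of SST, at -47, and CARTPT, at -143, both without counts, and single half-sites stood in TAC1, at -197, and in the downstream promoter of ADCYAP1, at -238. Windows of 30 bases around them are shown for comparison, with the match in capitals.
SST, chr3:187670424-187670453, minus strand: cgcctcctagccTGACGTCAgagagagagt
CARTPT, chr5:71719120-71719149, plus strand: cccggcgggcatTGACGTCAagcgccggcg
TAC1, chr7:97731877-97731906, plus strand: ttcctaaaattgCGTCAtttagaacccaat
ADCYAP1, chr18:905116-905145, plus strand: cgcttggcatcgCGTCAggggagttagctt

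The NPY promoter and the upstream promoter of ADCYAP1, at the main start used in these cells, held none of the 4 motifs. CAGATG stood in the promoters of CARTPT and TAC1, and CAGCTG in the downstream promoter of ADCYAP1. A match is a run of letters and not evidence of binding, and a missing match says only that these letters are not in this window.

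Partners of these genes, 24 receptors of the precursors and ligands of the receptors, were then examined. Most were rare, with 5 at 0 in all libraries and 9 more with too few counts to test, and of the 10 tested 1 was lower and 3 were higher past both thresholds (40.0% called, median log2 fold change 0.63, against 5.14% lower and 8.79% higher and a median of 0.0084 over all genes tested). The partners were also listed with earlier results of these data known, so nothing is read from that share. The receptor with the most counts was ADCYAP1R1, the PAC1 receptor of PACAP, which also binds VIP weakly. Controls gave 2892 and 3381 ADCYAP1R1 counts and knockdown libraries 5608 and 5555. This rise (log2 fold change 0.84, SE 0.0448, edgeR adjusted p = 8.7e-17) was short of the fold threshold. It rose from 29.9 to 53.6 RPKM in the libraries where its ligand gene ADCYAP1 was lower and VIP higher. VIPR1, a receptor of VIP and PACAP, had 35, 18, 14 and 17 counts and did not pass (log2 fold change -0.77, edgeR adjusted p = 0.11), and VIPR2 had 1 count in all.

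The galanin receptors were hardly detected beside their abundant ligand, with GALR1 at 0, 0, 1 and 0 counts, GALR2 at 1, 1, 1 and 0, and GALR3 at 3, 2, 2 and 4. NPY1R (23, 19, 34 and 20 counts) and NPY5R (21, 14, 29 and 28 counts) did not pass, and they share 528 exon bases on opposite strands. NPY2R had 2 counts in all and NPY4R none. Among opioid receptors, on which the enkephalins act, OPRD1 rose from 110 and 144 counts to 372 and 355 (log2 fold change 1.53, SE 0.121, edgeR adjusted p = 1.7e-12), OPRK1 fell from 212 and 314 counts to 159 and 145 (log2 fold change -0.78, SE 0.138, edgeR adjusted p = 1.5e-05), and OPRM1 had 3, 0, 8 and 1 counts. The delta and kappa receptor genes thus changed in opposite directions.

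For the tachykinins, TACR1, the receptor of substance P, rose from 6 and 8 counts to 35 and 19 (log2 fold change 1.94, SE 0.461, edgeR adjusted p = 0.00063) although TAC1 had no counts, TACR2 had 4, 11, 10 and 12, and TACR3 had 3, 0, 2 and 0. CORT, which encodes cortistatin, a ligand of somatostatin receptors, rose from 3 and 6 counts to 13 and 16 (log2 fold change 1.67, SE 0.560, edgeR adjusted p = 0.012). SSTR5 fell from 18 and 16 counts to 7 and 0 (log2 fold change -2.23, SE 0.642, edgeR adjusted p = 0.0038), SSTR3 had 1, 1, 1 and 7 counts, and SSTR1 and SSTR4 had none. CCK, the ligand gene of CCKAR, had 1, 1, 4 and 4 counts, and GAST had none. SSTR5 lost its call without shControl replicate 1 or 2 or shNeuroD1 replicate 2 (edgeR adjusted p = 0.255, 0.195 and 0.151), TACR1 without shControl replicate 1 or 2 or shNeuroD1 replicate 1 (edgeR adjusted p = 0.111, 0.0912 and 0.0821), and CORT without any 1 library (edgeR adjusted p = 0.0536 to 0.145). With DESeq2 the adjusted p was 0.093 for SSTR5 and 0.20 for CORT, and CORT shares 526 exon bases with CENPS-CORT on the same strand.

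Other peptide genes, written by role, moved in both directions. Of 49 further precursors 13 were tested, with 2 lower and 3 higher past both thresholds (38.5% called, median log2 fold change -0.13). Of 57 further receptors and receptor subunits 24 were tested, with 5 lower and 8 higher (54.2% called, median 0.60). Over the 3 lists together 47 of 130 genes were tested, 8 lower and 14 higher, beside 5.14% lower and 8.79% higher of all 17537 genes. The 3 lists were drawn up with earlier results of these data known, so nothing is read from these shares.

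**Figure D4:**
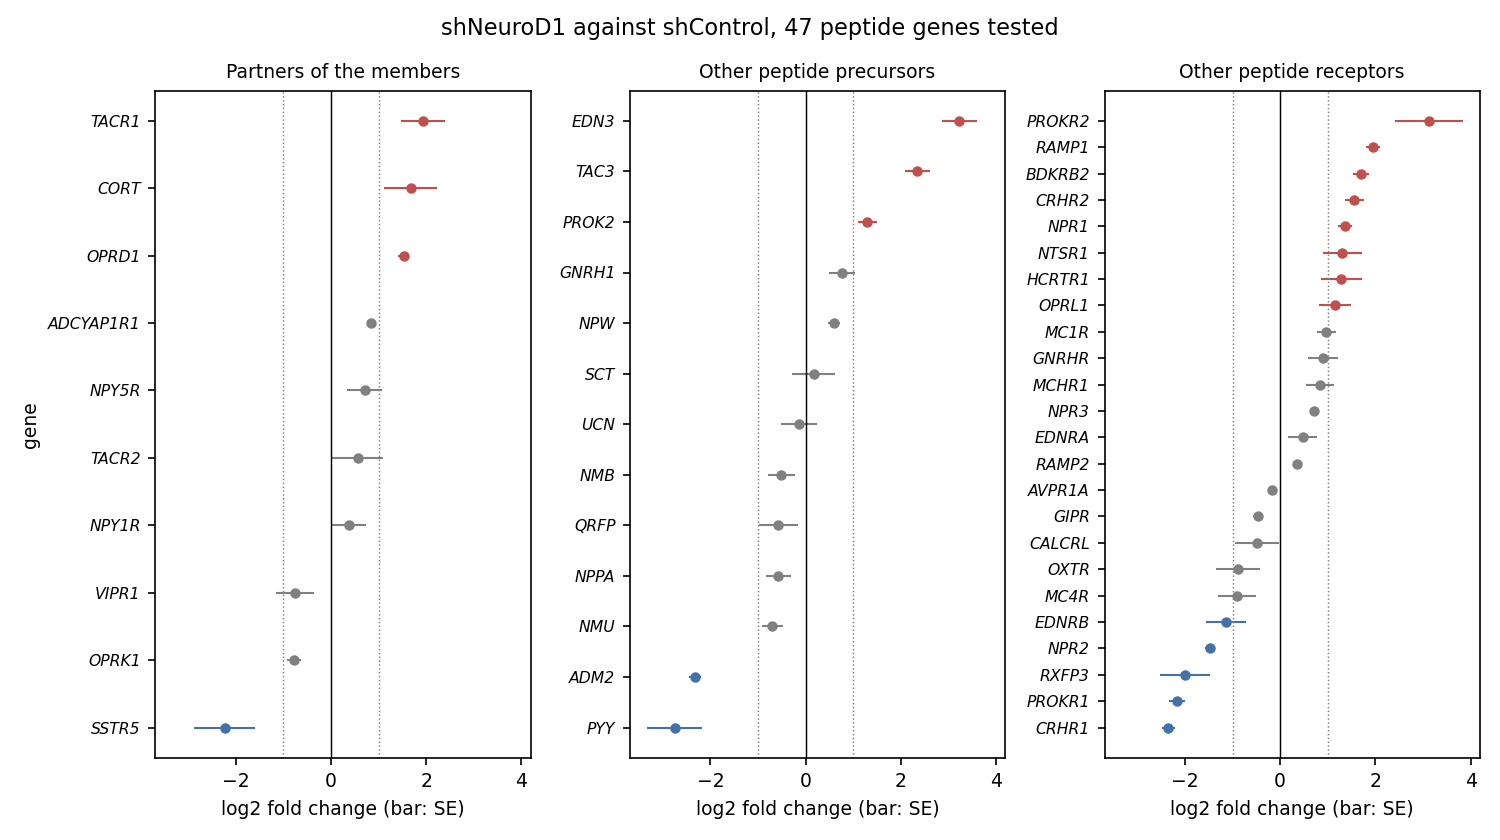
The log2 fold change (shNeuroD1 over shControl, points) with its SE (bars) for the 47 tested genes of the 3 lists, with dotted lines at -1 and 1, blue for genes called lower, red for genes called higher and grey for the rest. Called genes run from PYY at -2.75 to EDN3 at 3.23.

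Among the precursors, ADM2, which encodes the adrenomedullin relative intermedin, fell from 414 and 421 counts to 92 and 73 (log2 fold change -2.33, SE 0.129, edgeR adjusted p = 2.2e-16). PYY, the gene of the gut hormone peptide YY and a relative of NPY, fell from 20 and 22 counts to 5 and 1 (log2 fold change -2.75, SE 0.581, edgeR adjusted p = 0.00016). TAC3, the neurokinin B gene, rose from 16 and 18 counts to 88 and 85 (log2 fold change 2.35, SE 0.265, edgeR adjusted p = 4.8e-09). The precursors that fell and rose here were each at a lower level than GAL in every library. EDN3, the endothelin 3 gene, rose from 10 and 4 counts to 64 and 69 (log2 fold change 3.23, edgeR adjusted p = 4.2e-09), and PROK2, the prokineticin 2 gene, rose from 82 and 52 counts to 186 and 143 (log2 fold change 1.30, edgeR adjusted p = 7.3e-07). PYY did not pass without shControl replicate 1 or 2 (edgeR adjusted p = 0.065 in both cases), nor PROK2 without shControl replicate 2 (0.057).

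The further receptors are given by ligand family, an arrangement made after their values were seen. Some relatives went opposite ways and others the same way. CRHR1, the main receptor of corticotropin-releasing hormone, fell from 426 and 374 counts to 79 and 77 (log2 fold change -2.35, SE 0.136, edgeR adjusted p = 7.3e-16), while CRHR2, the urocortin receptor, rose from 41 and 44 counts to 136 and 114 (1.56, SE 0.198, edgeR adjusted p = 4.7e-08). PROKR1 fell from 231 and 299 counts to 50 and 67 (-2.17, edgeR adjusted p = 4.1e-13) and PROKR2, the other prokineticin receptor, rose from 2 and 1 counts to 13 and 15 (3.13, edgeR adjusted p = 0.00036). NPR2, the receptor of C-type natriuretic peptide, fell from 517 and 490 counts to 170 and 191 (-1.47, edgeR adjusted p = 9.9e-14), and NPR1, that of atrial natriuretic peptide, rose from 83 and 85 counts to 233 and 195 (1.36, edgeR adjusted p = 3.4e-09). NPR3, the clearance receptor of these peptides, also rose, from 668 and 914 counts to 1315 and 1266 (0.72, edgeR adjusted p = 3.6e-10), short of the fold threshold. EDNRB, an endothelin receptor, fell from 31 and 20 counts to 13 and 10 (-1.14, edgeR adjusted p = 0.021), whereas its ligand gene EDN3 rose. RXFP3, the relaxin 3 receptor gene, fell from 19 and 18 counts to 5 and 4 (-2.0, edgeR adjusted p = 0.0017).

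RAMP1, which encodes a subunit of the CGRP receptor, rose from 67 and 66 counts to 266 and 249 (log2 fold change 1.96, edgeR adjusted p = 5.9e-13), and RAMP2, its relative, rose from 576 and 568 to 707 and 745, short of the fold threshold (0.35, edgeR adjusted p = 0.00011). NPR3 and RAMP2 were chosen after their values were seen. RAMP2 shares 412 exon bases with RAMP2-AS1 on the opposite strand, which had 551, 667, 843 and 865 counts. Higher counts were also found for BDKRB2, the bradykinin B2 receptor gene, at 67 and 53 and then 187 and 199 (1.69, edgeR adjusted p = 3.0e-10), and NTSR1, a neurotensin receptor gene, at 8 and 13 and then 25 and 27 (1.31, edgeR adjusted p = 0.0074). No gene of the 22 called in the 3 lists had groups that overlapped. With 2 libraries a group the call rule itself makes overlap unlikely, so this adds nothing to the calls. EDNRB did not pass without shControl replicate 1 or shNeuroD1 replicate 2 (edgeR adjusted p = 0.22 and 0.14), nor NTSR1 without these (0.089 and 0.065), nor RXFP3 without shControl replicate 1 (0.053). With DESeq2 the adjusted p was 0.21 for EDNRB, 0.15 for NTSR1 and 0.070 for RXFP3. CRHR1 differed by -0.29 on log2(FPKM + 1). PROKR1 shares 1628 exon bases with APLF, CRHR1 2277 with LINC02210-CRHR1 and BDKRB2 479 with AL355102.2, each on the same strand. LINC02210-CRHR1 and AL355102.2 had 0 counts in all libraries. On the opposite strand MAPT-AS1 shares 120 exon bases with CRHR1 and had 211, 234, 59 and 79 counts. The counts of PROKR1, CRHR1 and BDKRB2 are therefore uncertain.

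The genes whose pattern over the 4 libraries was nearest to that of CCKAR were found by the Euclidean distance of log2 CPM (0.1 added) centred on the shControl mean, among the 10555 genes whose mean reached 10 CPM. They were NGFR, the p75 neurotrophin receptor gene (distance 0.020), PHLDB2, which encodes a protein of the cell cortex (0.26), NHLH1, a helix-loop-helix transcription factor gene (0.32), NPTX1, which encodes a secreted neuronal pentraxin (0.38), and GFRA1, a co-receptor gene of GDNF (0.48). Controls gave 1269 and 1374 NGFR counts and knockdown libraries 69 and 61, or 85.9, 86.4, 4.53 and 4.0 CPM, with a log2 fold change of -4.33 (SE 0.0968). The 4 other genes had log2 fold changes from -4.59 (NPTX1) to -3.99 (GFRA1). With 2 groups of 2 libraries this distance mostly ranks genes by the size of their difference.

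**Figure D5:**
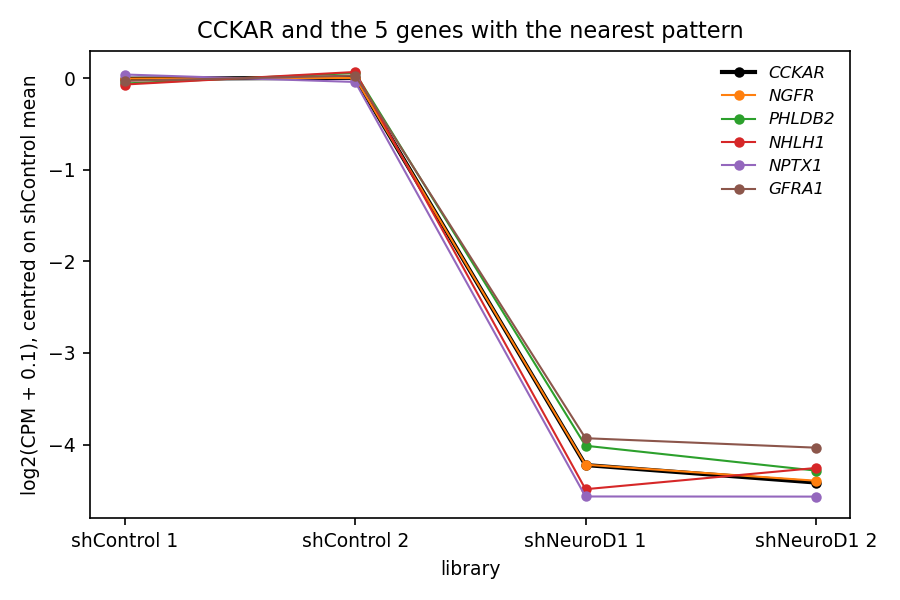
log2(CPM + 0.1) of CCKAR (black) and the 5 nearest genes in each library, centred on the shControl mean. NGFR runs along CCKAR, and the other genes end above or below it in the shNeuroD1 libraries.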

How the data were processed

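IMR-32 RNAseq libraries, 2 shControl and 2 shNeuroD1, were grouped by sample title. The authors deposited raw counts per gene for 60612 genes. The submitters' processing notes name cutadapt 1.9.1, HISAT2 2.0.1, HTSeq 0.6.1, DESeq2 and hg38. The use of strand in counting and the tool behind the deposited FPKM tables of transcript starts, ends and splicing events are not given in the sources used here. Counts were tested in edgeR 4.0.16 (R 4.3.3) with filterByExpr (minimum count 10), TMM scaling and the two-sided quasi-likelihood F test, with Benjamini-Hochberg adjustment over 17537 genes. The standard error is the log2 fold change over the square root of F. A call needed both an adjusted p below 0.05 and more than a log2 difference of 1. RPKM used merged exon lengths of GENCODE 29. Gene FPKM for limma 3.58.1 was the larger of the sums over starts and over ends on the gene's own strand. No value is reported from those fits for NEUROD1 and SSTR2, because their transcripts are filed with neighbouring genes. The scripts were tested on simulated data. Alternatives were other scalings and filters, DESeq2 1.42.0, limma on log2(FPKM + 1) and log2(FPKM + 0.1), a replicate block, glmTreat, the adjusted p alone, and leaving out each library.

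The members and gene lists were chosen with earlier results of these data known. Genes named are the 10 members, NEUROD1, all partners, the genes of the 3 lists past both thresholds (at most the 12 largest in each direction) and the 5 nearest to CCKAR. Replicates differed by more than sampling noise (chi-square per degree of freedom 2.53 in shControl and 1.56 in shNeuroD1).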

Additional observations from a re-analysis of the deposited data

How the results depend on the processing

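Each of CCKAR, SSTR2, GAL and VIP kept its direction and its side of the threshold under every alternative that gave a value, with log2 fold changes of -4.44 to -4.24, -3.69 to -3.63, 1.30 to 1.47 and 3.64 to 3.83 when 1 library was left out. PENK no longer passed with DESeq2 (1.20), with limma without a filter (0.61) or without shControl replicate 2 (range 0.75 to 1.84 over the libraries left out). ADCYAP1 no longer passed with limma (-0.49, -0.54 with the smaller pseudocount, -0.49 without a filter) and ran from -0.75 to -0.65 with libraries left out. NPY, never past the threshold, reversed with limma (0.23, 0.36 and 0.23) and ran from -0.41 to -0.04. The cause was not tested. Scaling by library size alone moved the median of all genes to 0.12, with CCKAR at -4.23 and NPY at -0.11.

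Of all genes, 902 lower became 233, 198 and 199 with limma on log2(FPKM + 1), on log2(FPKM + 0.1) and without a filter, 448 with glmTreat and 4939 by adjusted p alone, and 750 to 901 with a library left out. The 1541 higher became 242, 201 and 210 with limma, 998 with DESeq2, 576 with glmTreat, 4698 by adjusted p alone, and 1054 to 1338. Partners: the 1 lower became 0 with no filter, a mean of at least 1 CPM, DESeq2, limma and glmTreat, 2 by adjusted p alone, and 0 to 1, and the 3 higher became 0 with limma, 1 with glmTreat, and 1 to 2. Further precursors: the 2 lower became 1 at 1 CPM, 0 with limma, and 1 to 2, and the 3 higher became 0 with limma, 5 by adjusted p alone, and 2 to 3. Further receptors: the 5 lower became 3 with DESeq2 and glmTreat, 0 with limma, and 3 to 6, and the 8 higher became 1, 3 and 2 with limma, 5 with DESeq2, 4 with glmTreat, 13 by adjusted p alone, and 6 to 7. Under limma 4, 7 and 8 genes of these lists were tested, or 12, 13 and 15 without a filter, against 10, 13 and 24 by edgeR, and the cause of the lost calls was not tested. A further 28 genes were followed, namely NEUROD1, the called genes of the 3 lists and the genes nearest to CCKAR. Over these, 263 of 315 values kept direction and side, 52 no longer passed and 0 changed sign. Genes of the lists that were not called, such as ADCYAP1R1, OPRK1, NPR3 and RAMP2, were not among them.

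Same-numbered libraries showed no shared deviation (correlation of their deviations 0.019 over 17537 genes). This cannot tell whether they were handled together, which the labels do not state. With the replicate block CCKAR was at -4.34, SSTR2 at -3.66, VIP at 3.75 and PENK at 1.23, and 899 genes were lower and 1511 higher. At 2 libraries a group and these depths, differences of genes under 1 CPM are poorly resolved. With 1 library left in a group, its spread was assumed to be that of the others.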
